A study of Mus musculus with 12 samples.

Results

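Complex I of the respiratory chain takes electrons from NADH, and it does so in its N-module, the tip of the arm that reaches into the mitochondrial matrix. The 9 genes described here are Ndufs4, which was deleted from adipocytes in this study, the other N-module subunits Ndufs1, Ndufv1, Ndufv2, Ndufv3, Ndufs6, Ndufa2 and Ndufa12, and the assembly factor Ndufaf2. They were chosen by gene symbol, and all 9 were found among the 16738 genes of the authors' deposited table for inguinal white fat (iWAT) and among the 15363 genes of that for brown fat (BAT). In the labels, 12 white fat libraries of C57BL/6 mice fall into 4 groups of 3: males and females, each as WT and as KO. The KO is the adipocyte-specific loss of NDUFS4, and all of these mice ate a high-fat diet and lived at room temperature. No source used here names the promoter that drives the deletion, the mice's ages or the number of animals behind a library, so p-values measure only the spread between libraries, which may be technical. The brown fat table is the authors' comparison on libraries that the labels do not describe.

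NADH binds at the flavin of Ndufv1, and electrons then pass along iron-sulphur clusters towards ubiquinone. Ndufv1, Ndufv2 and Ndufs1 hold the clusters of the module. Ndufs4, Ndufs6, Ndufa2, Ndufa12 and Ndufv3 are accessory subunits that carry no redox centre and hold the module together or in place. The module is built separately and joined to the rest of the enzyme last. Ndufaf2, a relative of Ndufa12, sits at the joining site during that step, and in mitochondria that lack NDUFS4 it is known to stay bound to an incomplete enzyme. All 9 proteins are encoded in the nucleus.

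The comparison that the deposited tables hold is the interaction of genotype and sex, on the log2 scale: the KO effect in females minus the KO effect in males. It asks whether losing NDUFS4 changed a message differently in the sexes. It does not give the KO effect in either sex, and its sign rests on the order of the sexes in the tables' names. A value above 0 can come from a higher level in KO females, a lower level in KO males, or a difference among the WT groups. Library values carry no name that matches the labels and were used in no step, so levels are given as the authors' means over libraries, errors are standard errors of the authors' limma fit, and the depth is unknown.

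Start regions are shown for the genes of which a searched motif was found, next to Ndufs4 itself. RefSeq (GRCm38.p6) gave the promoter of 7 of the 9 genes, from 250 bases before the start site to 50 after it. The start site is counted as 0, the bases before it carry a minus sign, and capitals mark a motif. The YY1 letters AANATGGCG lie across the start codon, whose ATG is inside the capitals, in the Ndufs4 stretch (chr13:114388045-114388074, minus strand, bases 20 to 49) and in the Ndufs6 stretch (chr13:73328433-73328462, minus strand, bases 20 to 49):
Ndufs4 start: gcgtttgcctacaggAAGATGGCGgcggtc
Ndufs6 start: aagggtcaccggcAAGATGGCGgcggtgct
The 100 bases before the start are shown for Ndufs4, in which no searched motif was found (chr13:114388095-114388194, minus strand), and for the 2 genes with the NRF1 motif, Ndufs6 (chr13:73328483-73328582, minus strand) and Ndufv2 (chr17:66101560-66101659, minus strand):
Ndufs4 upstream: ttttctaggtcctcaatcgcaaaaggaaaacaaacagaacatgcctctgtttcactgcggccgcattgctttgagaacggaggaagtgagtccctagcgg
Ndufs6 upstream: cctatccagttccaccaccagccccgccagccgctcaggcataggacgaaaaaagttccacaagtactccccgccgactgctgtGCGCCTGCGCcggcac
Ndufv2 upstream: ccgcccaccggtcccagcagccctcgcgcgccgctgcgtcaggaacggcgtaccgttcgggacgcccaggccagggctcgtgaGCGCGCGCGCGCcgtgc
The NRF1 motif, GCGC followed by any 2 bases and GCGC again, is named for a regulator of respiratory chain genes and was in 2 of the 7 promoters, against 6.23% of 32851 promoters of the same length. In Ndufs6 it lies at bases -16 to -7, and in Ndufv2, in a run of alternating G and C, at -17 to -8 and, overlapping, at -15 to -6. The YY1 letters were in 2 of the 7, against 2.38% of all promoters. The GABP/ETS letters CCGGAAG, the ERR letters TCAAGGTCA and their core AAGGTCA, which the longer ERR motif contains, were in 0 of the 7 windows, against 8.86%, 0.423% and 4.72% of all promoters. Both strands were searched, and a match is a description of the letters only. GC made up 49% of the 100 bases before the start of Ndufs4, and 64% and 79% of those of Ndufs6 and Ndufv2.

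Each N-module message stood higher within the brown fat table than within the white fat table. In the authors' deposited table for white fat, Ndufs4 had a mean log2 expression of 7.29 over the libraries, above 92.2% of the genes of that table, and in that for brown fat 8.84, above 98.2%. Ndufs1 went from 7.92 in the authors' deposited white fat table (above 95.9% of its genes) to 10.04 in brown fat (above 99.4%). Ndufaf2 went from 4.59 in the authors' deposited white fat table (above 59.3%) to 5.18 in brown fat (above 72.8%). These means are not divided by length, so they place 1 gene in both depots and do not order the 9 genes. The tables were normalised separately, so a level in one is not a fold above the same level in the other. Brown fat is the depot known for its dense mitochondria.

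To order the genes, levels were taken per length, as the deposited mean log2 expression less log2 of the gene's exon length in kb, with overlapping exons merged. On this scale Ndufa2, a small subunit with a thioredoxin-like fold, led in white fat with 9.55, followed by Ndufs6, a zinc-binding subunit, with 7.85. Ndufv2, Ndufa12, Ndufv3, Ndufs4 and Ndufv1 lay close together at 6.24, 6.11, 5.99, 5.86 and 5.68. Ndufs1, the largest subunit of the module, had 4.91, and Ndufaf2 was last with 3.02. In brown fat the first, second, eighth and last places per length were held by the same genes, with 10.75 for Ndufa2, 9.60 for Ndufs6, 7.03 for Ndufs1 and 3.60 for Ndufaf2. Between them Ndufv1 came next after Ndufs6 with 8.38, before Ndufa12 (8.16), Ndufv2 (8.03), Ndufv3 (7.58) and Ndufs4 (7.40). The spread of these levels over libraries was not analysed here, so neighbours in either order are not separated from each other. Exon lengths come from GENCODE M21, an annotation of an older build, and reads of a gene need not cover all of its exons.

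**Figure D1:**
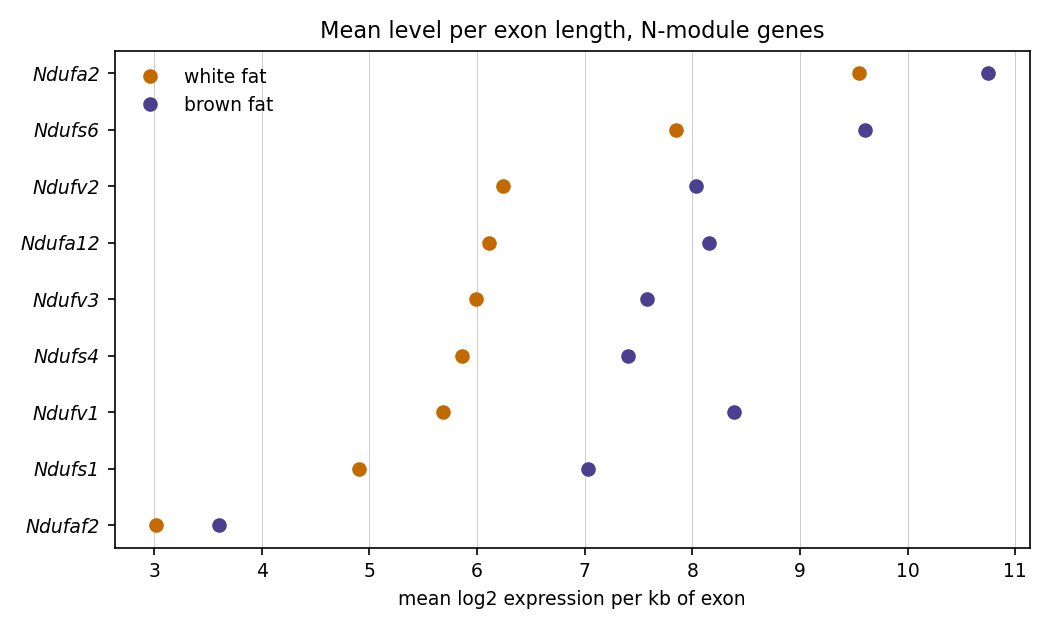
Mean log2 expression per kb of exon (x axis) of the 9 genes (y axis) in white fat (orange) and brown fat (purple), 1 point per gene and depot, each the authors' mean over libraries less log2 of the exon length in kb. Ndufa2 is highest and Ndufaf2 lowest in both depots (9.55 and 3.02 in white fat), and the depots' scales were normalised separately.

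Ndufs4 was read first, as the targeted gene (ENSMUSG00000021764.9, chromosome 13, 114424331 to 114524794, minus strand, GRCm39). In the authors' deposited table for white fat its log2 interaction was 0.89 ± 0.38 (standard error), with an adjusted p of 0.169 from limma, and did not pass the threshold of 0.05 over all genes. Its 95% interval ran from 0.07 to 1.70, a ratio of the female to the male KO effect between 1.05 and 3.25. In brown fat the authors' deposited table gave -0.10 ± 0.14 (adjusted p = 0.946, limma), with an interval from -0.38 to 0.18, a ratio between 0.767 and 1.14. The white fat interval lies above 0 before adjustment over genes and the brown fat interval includes 0. Neither value says how far Ndufs4 fell in KO fat of either sex, so the genotype labels are not checked by it. Nor does a count over the whole gene show which exon was lost.

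All 9 genes had an interaction above 0 in white fat, and none of them passed on its own. In the authors' deposited table, 0 of the 9 passed an adjusted p of 0.05 (limma), where 1.06% of all genes passed above 0 and 4.75% in either direction. At an unadjusted p of 0.05, 9 of 9 passed above 0, against 11.9% of all genes above 0 and 24.5% in either direction. Their median log2 interaction was 1.13, with a range of 0.76 to 1.88, while the median over all genes was 0.13 and 55.9% of all genes lay above 0. The members share libraries and were chosen with earlier results known, so these counts are a description of the module and not a test of it.

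The core subunits, which carry the redox centres, lay above the module's median of 1.13, Ndufs1 by far less than its standard error. The accessory subunit Ndufa12, at 1.87, lay beside the highest of them, so core and accessory subunits were not separated. Ndufv1, the NADH-binding subunit (chromosome 19, 4057384 to 4062806, minus strand), had the highest log2 interaction of the 9 in the authors' deposited white fat table, 1.88 ± 0.67 (standard error, adjusted p = 0.107 in limma). Ndufv2, its partner with an iron-sulphur cluster (chromosome 17, 66385633 to 66408554, minus strand), was at 1.48 ± 0.50 in the same authors' deposited table (adjusted p = 0.0953). Ndufs1, which also holds clusters (chromosome 1, 63182755 to 63215992, minus strand), was at 1.15 ± 0.42 in the authors' deposited table (adjusted p = 0.114). The intervals of the 3 core subunits overlapped widely, from 0.45 to 3.31 for Ndufv1, 0.40 to 2.57 for Ndufv2 and 0.25 to 2.05 for Ndufs1.

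Among accessory subunits Ndufa12 stood highest and Ndufa2 lowest. Ndufa12 (chromosome 10, 94034582 to 94057305, plus strand) had the smallest p of the module, with a log2 interaction of 1.87 ± 0.55 (adjusted p = 0.0629, limma) in the authors' deposited white fat table, and ranked 1210 by p of the 16738 genes. Ndufs6 (chromosome 13, 73467957 to 73476661, minus strand) was at 1.13 ± 0.49 in the authors' deposited table (adjusted p = 0.177). Ndufv3, a subunit made in a long and a short form (chromosome 17, 31739089 to 31750305, plus strand), was at 1.01 ± 0.41 in the authors' deposited table (adjusted p = 0.148). Ndufa2 (chromosome 18, 36875385 to 36877610, minus strand) was at 0.76 ± 0.34 in the authors' deposited table (adjusted p = 0.192), and its interval began at 0.02. Ndufaf2, the assembly factor (chromosome 13, 108139249 to 108295157, minus strand), was at 0.99 ± 0.41 in the authors' deposited table (adjusted p = 0.156). Ndufs4 thus ranked eighth of the 9 by size, between Ndufaf2 and Ndufa2. At a threshold of 0.10 on the adjusted p, Ndufa12 and Ndufv2 passed, 2 of 9 against 4.67% of all genes above 0.

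**Figure D2:**
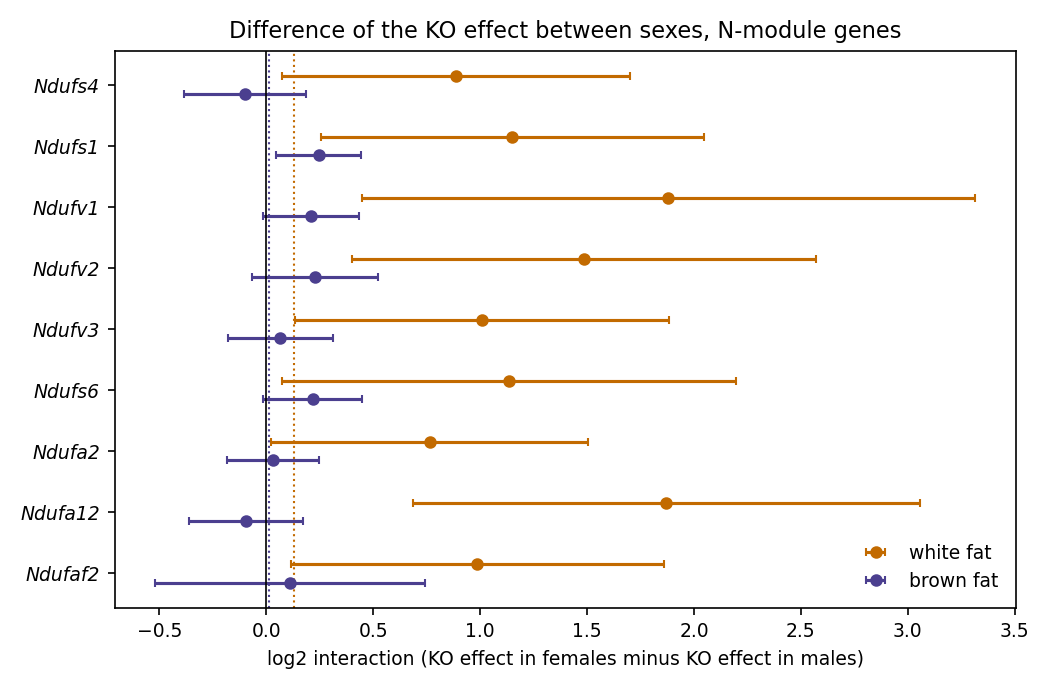
Log2 interaction (x axis, the KO effect in females minus that in males) of each N-module gene (y axis) in white fat (orange) and brown fat (purple), with bars for 95% intervals from the standard error of the authors' fit and dotted lines at each table's median over all genes. All 9 white fat points lie between 0.76 and 1.88 with wide intervals above 0, while the brown fat points lie between -0.10 and 0.24 with narrower ones.

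In brown fat the module lay near 0 and the estimates were tighter. Of the 9 genes 7 were above 0, where 51% of all genes were, and the median was 0.11 with a range of -0.10 to 0.24. The authors' deposited brown fat table had 0 members past an adjusted p of 0.05 (limma), where 0.013% of all genes passed, and 1 member at an unadjusted p of 0.05, Ndufs1, where 3.33% of all genes passed above 0 and 6.51% in either direction. Ndufs1 was at 0.24 ± 0.10 in the authors' deposited brown fat table (adjusted p = 0.690, interval 0.05 to 0.44). Ndufv2, Ndufs6 and Ndufv1 followed with 0.23 ± 0.14, 0.22 ± 0.11 and 0.21 ± 0.11 in the authors' deposited table (adjusted p = 0.828, 0.789 and 0.789). For Ndufaf2, Ndufv3 and Ndufa2 the authors' deposited table gave 0.11 ± 0.31, 0.06 ± 0.12 and 0.03 ± 0.11, and their intervals included 0. Ndufa12, with the smallest p in white fat, was below 0 in the authors' deposited brown fat table at -0.09 ± 0.13 (adjusted p = 0.946), beside Ndufs4. For Ndufa12 the interval of -0.36 to 0.17 bounds the ratio of the female to the male KO effect in brown fat to between 0.779 and 1.13.

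The interactions of the depots were then set against each other, gene by gene. The white fat value was the larger for all 9 genes, by 0.73 (Ndufa2) to 1.96 (Ndufa12) with a median of 0.94, while the median over 14502 shared genes was 0.20. None of the 9 passed after adjustment over the shared genes (lowest adjusted p = 0.129, two-sided test on the summed squared errors of the limma fits), where 0.0896% of genes passed above 0 and 0.248% in either direction. At a threshold of 0.10 it was also 0 of 9, against 0.696% above 0. At an unadjusted p of 0.05 there were 5 members, Ndufs4, Ndufv1, Ndufv2, Ndufv3 and Ndufa12, where 9.73% of genes passed above 0. For Ndufs4 the difference was 0.99 ± 0.40 (interval 0.14 to 1.83, adjusted p = 0.249), and for Ndufa12 it was 1.96 ± 0.57 (interval 0.76 to 3.17, adjusted p = 0.129). The test takes both tables as independent, and no source used here says whether they come from the same mice.

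The standard errors themselves differed between the depots. In white fat all 9 genes had a standard error above the median of genes within 0.5 log2 of their mean expression. Ndufv1 had 0.67 against a median of 0.26 among 1369 such genes, above 98.7% of them, and Ndufa12 had 0.55 against 0.27, above 96.6%. Ndufv2 and Ndufs6 followed, above 96.0% and 94.4% of such genes, while Ndufs4, with 0.38 against 0.26, was above 83.2%. Ndufaf2, with 0.41 against 0.39, was above 57.2%. In brown fat 1 of the 9, Ndufv2, was above the median of like genes (0.144 against 0.137, above 70.7%), and Ndufs1 was above 7.23% of them. The standard error reflects how unevenly libraries of the same group read a gene, after limma has drawn it towards that of other genes. The degrees of freedom that t and p imply were 13.4 in white fat and 33.9 in brown fat. If each fit used the 12 library columns of its table, the draw was stronger in brown fat. Its part in the smaller gaps between brown fat genes and like genes was not tested. For the 8 subunits the standard error was larger in white fat than for 73.5% (Ndufa2) to 98.7% (Ndufv1) of messages of like abundance. Ranked by the interaction itself among genes of like mean expression in white fat, Ndufv1 and Ndufa12 each lay above 99.3% and Ndufs4 above 87.4%.

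**Figure D3:**
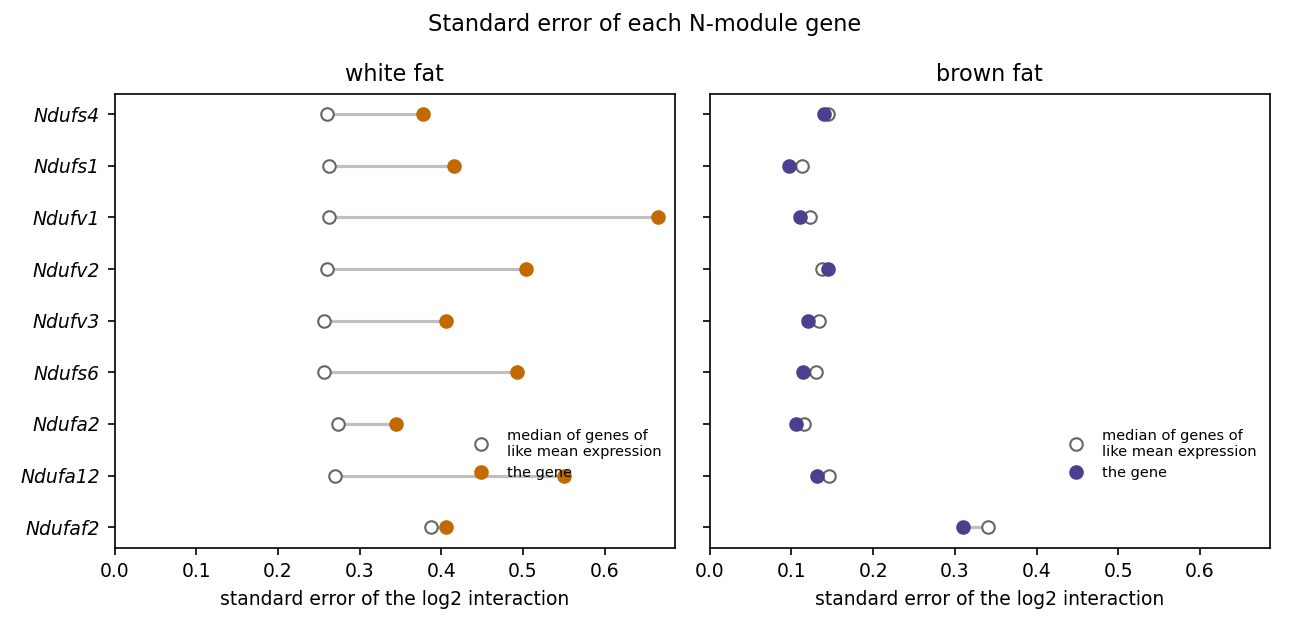
Standard error of the log2 interaction (x axis) of each N-module gene (y axis, filled points) and the median over genes within 0.5 log2 of its mean expression (open points), in white fat (left) and brown fat (right). In white fat every filled point lies to the right of its open point, by most for Ndufv1 (0.67 against 0.26), and in brown fat the pairs nearly coincide.

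The rest of complex I leaned the same way as the N-module in white fat, and no other subunit passed the adjusted p there either. The counts of the next lists are to be set beside 55.9% of all genes above 0, 11.9% at an unadjusted p of 0.05 above 0 and 24.5% in either direction. The Q module, which hands electrons to ubiquinone, had 8 of 8 measured genes above 0 (median 1.22) and 2 at an unadjusted p of 0.05, both above 0. A share of 2 of 8 is near the 24.5% of all genes in either direction and higher than the 11.9% above 0. Ndufs3, a core subunit, had the smallest p of that list at 2.03 ± 0.74 (adjusted p = 0.115, limma) in the authors' deposited table, followed by Ndufa9 and Ndufa5 at 1.23 ± 0.56 and 1.21 ± 0.56. Its largest p belonged to Ndufa6, at 0.35 ± 0.39 in the authors' deposited table (adjusted p = 0.602). The nuclear genes of the membrane arm, which pumps protons, had 21 of 21 above 0 (median 1.14) and 14 at an unadjusted p of 0.05. Ndufb4, Ndufa8 and Ndufb6 led them with 1.70 ± 0.48, 1.36 ± 0.39 and 1.32 ± 0.41 in the authors' deposited table (adjusted p = 0.0566, 0.0611 and 0.0736, limma), and Ndufb5 had the largest p at 0.62 ± 0.49. Q module errors were wider (median 0.56) than those of the N-module (0.42) and the membrane arm (0.45). Whether these lists differ from the N-module was not tested.

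Subunits encoded by mitochondrial DNA and the assembly factors also lay mostly above 0 in white fat, with more scatter. The 7 mitochondrial genes were all above 0 (median 1.69), and 4 passed an unadjusted p of 0.05, mt-Nd2, mt-Nd3, mt-Nd5 and mt-Nd6. Among them mt-Nd5 stood at 1.79 ± 0.56 and mt-Nd2 at 1.12 ± 0.37 in the authors' deposited table (adjusted p = 0.0726 and 0.0900, limma). mt-Nd3, at 3.63 ± 1.58 in the authors' deposited table, had a mean log2 expression of only 0.62, and mt-Nd4 had the largest p of the list at 0.40 ± 0.31. The list median of 1.69 is the value of mt-Nd4l (standard error 1.20), which was lower still, at a mean log2 expression of -1.22. The abundant mt-Nd1 (mean log2 expression 12.39) was at 0.53 ± 0.33 in the authors' deposited table, below mt-Nd2 and mt-Nd5. Of 17 measured assembly factors other than Ndufaf2, 16 were above 0 (median 0.88) and 3 passed an unadjusted p of 0.05, and Coa1 was not found by its symbol. A share of 3 of 17 lies between the 11.9% of all genes above 0 and the 24.5% in either direction. Foxred1, a flavoprotein needed for assembly, was at 1.78 ± 0.54 in the authors' deposited table (adjusted p = 0.0673, limma). Ecsit and Dmac1 followed at 1.43 ± 0.50 and 0.56 ± 0.25, and Dmac2, the exception below 0, was at -0.17 ± 0.93 in the authors' deposited table. In brown fat the medians of the Q module, membrane arm, mitochondrial and assembly lists were 0.18, 0.23, 0.06 and 0.24, with 0 genes past an adjusted p of 0.05 in limma and 1, 3, 2 and 1 at an unadjusted p of 0.05, where 6.51% of all genes passed in either direction.

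**Figure D4:**
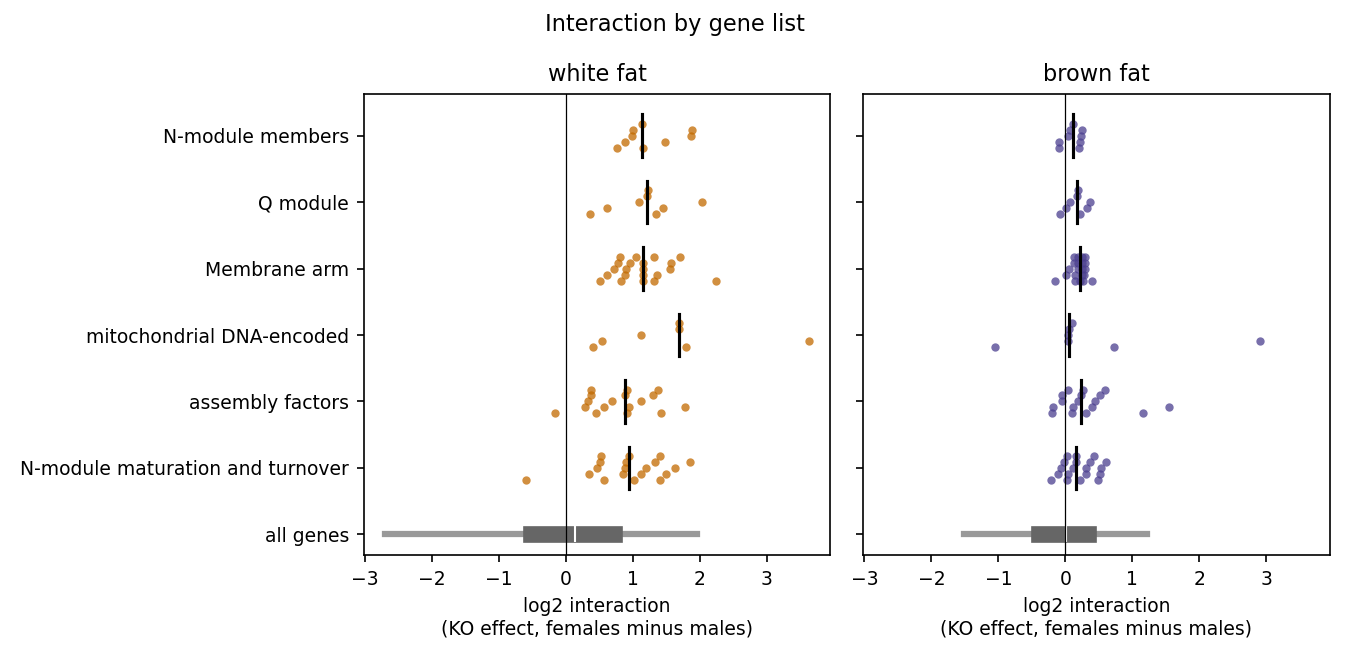
Log2 interaction (x axis) of each measured gene (points) by list (y axis), in white fat (left) and brown fat (right), with black bars at list medians and, for all genes, a thick grey bar from the 25th to the 75th percentile, a thin one from the 5th to the 95th and a white tick at the median. The N-module median is 1.13 in white fat and 0.11 in brown fat, beside medians of 0.13 and 0.01 over all genes.

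Ndufs4 was compared with the other complex I genes by the distance between their pairs of log2 interactions, a likeness over 2 contrasts only. Of 53 complex I genes outside the module, Ndufaf7, a methyltransferase that modifies a Q module subunit, was nearest (0.94 in white fat and -0.04 in brown fat in the authors' deposited tables, distance 0.08). Ndufa13 and the assembly factor Ndufaf4 came next, at 0.89 and 0.01 and at 0.90 and 0.05 in the authors' deposited tables (distances 0.11 and 0.15). Of the 8 other members, Ndufa2 and Ndufv3 were nearest (distances 0.18 and 0.20). In white fat the standard errors were 0.38 for Ndufs4, 0.62 for Ndufaf7, 0.46 for Ndufa13 and 0.50 for Ndufaf4. Those of Ndufa2 and Ndufv3 were 0.34 and 0.41. All are larger than these distances, so the order of likeness is not resolved.

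Of the complex I and N-module lists, that of genes that supply or clear the N-module was the only one with genes past the adjusted p in white fat. Iron-sulphur clusters are made by dedicated mitochondrial enzymes, other genes of the list supply flavin, and matrix proteases remove the module when it is damaged. Of 19 measured genes of this list, 18 were above 0 in white fat (median 0.94), 10 passed an unadjusted p of 0.05 above 0, and 2 passed the adjusted p of 0.05 above 0. Over all genes 55.9% were above 0, 11.9% passed the unadjusted p above 0 and 1.06% the adjusted p above 0. The 2 were Lonp1, a matrix protease (chromosome 17, 56921297 to 56933887), at 1.41 ± 0.31 and Clpx, the unfoldase that feeds the protease Clpp (chromosome 9, 65201542 to 65237940), at 1.40 ± 0.32 in the authors' deposited table (adjusted p = 0.0357 each, limma). Hspa9, a chaperone used in cluster transfer, was at 1.32 ± 0.37 in the authors' deposited table (adjusted p = 0.0559). Clpp itself, picked out after its value was seen, was at 0.50 ± 0.51 in the authors' deposited table (adjusted p = 0.566). Nubpl, which delivers clusters to complex I and is counted among the assembly factors too, was at 0.88 ± 0.44 in the authors' deposited table (adjusted p = 0.231), and was also chosen after its value was seen. In brown fat 15 of the 19 were above 0 (median 0.16) and 0 passed in limma, either adjusted or at an unadjusted p of 0.05. Fdx2 was not found by its symbol.

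Among markers of cell types in the same white fat table, those of T and B cells lay furthest from 0 by median. Over all genes there, 55.9% were above 0 and 1.06% passed the adjusted p of 0.05 above 0. At an unadjusted p of 0.05, 11.9% of all genes passed above 0 and 24.5% in either direction. Of 10 T cell markers, 10 passed below 0 (median -7.58), where 3.69% of all genes did, and of 8 B cell markers 8 were below 0 (median -8.17) and 5 passed (Cd22, Ms4a1, Blk, Cxcr5 and Bank1), at median mean log2 expressions of 2.34 and 1.59. Of 10 skeletal muscle markers 10 were above 0 (median 3.75, 0 past the adjusted p in limma, 1 at an unadjusted p of 0.05). The 8 thermogenic adipocyte markers were all above 0 (median 3.25, 1 past the adjusted p, the potassium channel gene Kcnk3, named after its value was seen). Adipocyte markers were abundant, with a lowest mean log2 expression of 6.40, above 84.0% of genes. The 8 were all above 0, with a median of 0.39, and 0 passed in limma (1 at an unadjusted p of 0.05). Macrophage markers had a median of -0.12 (0 past, adjusted or not) and endothelial markers one of 0.57 (0 past the adjusted p in limma, 2 at an unadjusted p of 0.05). In brown fat the muscle markers lay the other way, with 10 of 10 below 0 (median -3.40, 0 past the adjusted p in limma, 4 at an unadjusted p of 0.05). Over all brown fat genes 51% were above 0, and 6.51% passed an unadjusted p of 0.05 in either direction. In that depot 3 of 10 T cell and 4 of 8 B cell markers were measured, and thermogenic markers had a median of 0.10. Ucp1, the uncoupling protein that defines brown fat, stood above 99.9% of genes there in the authors' deposited table. The part of these cell types in the N-module values was not tested. In bulk tissue fewer cells of a type and less RNA per cell cannot be told apart.

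Some members share bases or sequence with other genes of the tables. Ndufaf2 overlaps 4727 bases of Smim15 on the opposite strand, which had a mean log2 expression of 6.90 and an interaction of -0.01 in the authors' deposited white fat table. Ndufs1 overlaps 9 bases of Eef1b2 and 14695 bases of the long noncoding Ino80dos, Ndufs6 overlaps 30 bases of Mrpl36, and Ndufa2 overlaps 66 bases of Tmco6, all on the opposite strand. These overlaps are of whole gene spans, introns included, and those of Smim15 and Ino80dos are longer than all exons of Ndufaf2 (2.98 kb) and Ndufs1 (8.09 kb), so part of each is intron of the member. How much of any overlap lies in exons was not measured. No strand setting is stated, so reads from bases that lie in exons of both partners, if any, cannot be told apart. Processed pseudogenes of Ndufa12 (Ndufa12-ps) and Ndufs6 (Ndufs6b) were listed at mean log2 expressions of 0.51 and 0.10 in the authors' deposited white fat table, far below the genes themselves.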

How the data were processed

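Per the labels' protocols, RNA was purified from white and brown fat. The submitters' processing notes name featureCounts, limma and GRCm39. Versions, aligner, annotation, strand setting and normalisation are stated in none of the sources used here. The log2 values are the interaction and mean expression the authors deposited, the t-statistic is a deposited score, and the p-values and Benjamini-Hochberg adjusted p-values are also as deposited. In all, 48 library columns, 12 in each of 4 tables, match no label and were used in no step.

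Standard errors were computed as the size of the interaction over t, and intervals at 95% from t with 13.4 (white fat) and 33.9 (brown fat) degrees of freedom, which t and p imply. The difference between depots used Welch-Satterthwaite degrees of freedom and adjustment over 14502 shared genes, two-sided. The threshold was 0.05. These steps were tested on simulated data in which genes and depots were drawn independently, so shared mice and correlated genes were not covered. Tables and tests were made in scipy 1.17.1, pandas 2.3.3 and numpy 2.4.6 under Python 3.11.15, and figures in matplotlib 3.10.9.

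The members and lists were chosen with earlier results of these data known. All members are named, with the 3 smallest p and the largest p of each other complex I list, the 3 smallest p of the maturation list, and the genes nearest to Ndufs4. Depth is unknown.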

Additional observations from a re-analysis of the deposited data

Results flagged for a closer look

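At an adjusted p of 0.05 in the white fat interaction, the KO effect differed between sexes for 8 of the genes named here. None of the 8 is in the N-module, and over all genes 4.75% passed in either direction. The cell type markers among the 8 were named because they passed, so their number is not a result. In the list of genes that supply or clear the module, Lonp1 and Clpx passed. Their log2 interactions were 1.41 ± 0.31 and 1.40 ± 0.32 (standard error, adjusted p = 0.0357 each in limma, the authors' deposited table). Among cell type markers, the thermogenic gene Kcnk3 was at 3.20 ± 0.81 (adjusted p = 0.0438, limma) in the authors' deposited table. For Cd22, Cxcr5, Blk, Bank1 and Ms4a1, all markers of B cells, the authors' deposited table gave -11.07 ± 2.44, -8.28 ± 1.75, -8.00 ± 1.73, -6.73 ± 1.54 and -9.62 ± 2.55, with adjusted p from 0.0357 to 0.0487 in limma. The 10 T cell markers, counted as a list, passed below 0 too. No N-module gene passed, in either depot or between depots.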

How the results depend on the processing

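At a threshold of 0.10 on the adjusted p, 2 of the 9 members passed in white fat where 0 had. So did 7 of 53 other complex I genes where 0 had, and 4 of 19 maturation and turnover genes where 2 had. Over all genes 2027 passed (12.1%, with 4.67% above 0) where 795 had (4.75%, with 1.06% above 0). A share of 7 of 53 is near the 12.1% of all genes in either direction and higher than the 4.67% above 0. In brown fat the counts of the 3 lists stayed at 0. Adjusting over protein-coding genes alone or over genes whose mean log2 expression reached log2 of 10, and reading each interaction relative to its table's median, left the counts of these 3 lists as they were in both depots. No member changed sign in either depot or in the difference between depots. Between depots 0 members passed under each of these alternatives except the protein-coding restriction, which was not run there, and 0 with the smaller degrees of freedom (lowest adjusted p = 0.251). Leaving out each replicate was not run, since it needs library values. No paired analysis was possible because the library columns carry no replicate number. Depth is unknown, and its part in the values of low genes such as mt-Nd3 was not tested.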
